A study of Homo sapiens with 6 samples.

Results

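Of 34 genes for inflammatory cytokines, chemokines, NF-kappaB subunits, NF-kappaB inhibitors and genes they are known to induce, 31 could be measured in xenograft tumors of the human lung squamous carcinoma line CRL-5889, among 18132 genes with a probe set of their own. The genes were taken by symbol from the platform annotation, with probe sets naming exactly 1 gene, and each gene was read from its brightest probe set on average over the arrays of all 6 tumors. CSF2 and BIRC3 had no such probe set, and the 4 probe sets of SOD2 also name SOD2-OT1, so these 3 genes were not analysed here. Tumors had grown for 4 weeks in nude mice, a strain without mature T cells that keeps myeloid, B and natural killer cells. The implanted cells were transfected with the TRA2B-DNAH5 fusion in 3 tumors and with the vector in 3 tumors, and each tumor was hybridised to 1 array. The labels give no promoter or dose of the fusion and do not say whether the transfected cells were a clone or a pool, so a difference between the transfected populations and an effect of the fusion cannot be told apart. TRA2B and DNAH5 themselves had log2 fold changes of 0.039 and -0.0043, which does not check the construct, since its parts are not named in the labels.

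NF-kappaB is a family of dimers built from REL proteins that wait in the cytoplasm bound to IkappaB inhibitors. Cytokines such as TNF and interleukin 1 activate the IkappaB kinases, the inhibitors are degraded, and the dimers enter the nucleus and induce cytokines, chemokines and adhesion molecules together with their own inhibitors, which close the loop. In carcinomas the chemokines made this way draw neutrophils (the CXCL group), monocytes (CCL2) and cells carrying the receptor CCR6 (CCL20) into the tumor.

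Promoter sequences of RefSeq (GRCh38.p14), from 250 bases before to 50 after the start of a gene, held the kappaB letters GGNNNTTCC, or GGAANNNCC as these letters read from the other strand, in 20 of the 28 genes of the group that had such a sequence (71.4%). The same letters were present in 23.5% of 27305 genes with a sequence in the table, where a gene counted if any of its start sites had a match. The group includes genes chosen as known targets of NF-kappaB, so the distance between these shares follows in part from the choice. IL1A, IL1B, TNF, IL11, IL24, RELA, SOD2 and PTGS2 had no match in this window, and CCL2, CSF3, LIF, IL18, RELB and NFKBIE had no sequence in the table. The AP-1 letters TGANTCA, which read the same from both strands, were found in 4 of the 28 (CXCL8, IL1A, IL11 and IL1RN), against 9.37% of all genes, and their positions did not overlap those of the kappaB matches, which CXCL8 and IL1RN also held. Stretches of 89 bases are printed 5′ to 3′ on the strand of the gene, with kappaB matches in capitals, for the genes whose levels are given tumor by tumor further on. Those of the neighbouring chemokine genes CXCL1 at chr4:73869275-73869363 (plus strand), CXCL2 at chr4:74099224-74099312 (minus strand) and CXCL3 at chr4:74038719-74038807 (minus strand) are shown because the genes are close copies of each other, with CXCL8 at chr4:73740438-73740526 (plus strand) for contrast.
CXCL1: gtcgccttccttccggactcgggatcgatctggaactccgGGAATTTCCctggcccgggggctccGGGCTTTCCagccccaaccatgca
CXCL2: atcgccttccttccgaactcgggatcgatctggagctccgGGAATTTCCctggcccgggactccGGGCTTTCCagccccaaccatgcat
CXCL3: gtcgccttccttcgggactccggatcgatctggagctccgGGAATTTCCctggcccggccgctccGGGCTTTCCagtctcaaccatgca
CXCL8: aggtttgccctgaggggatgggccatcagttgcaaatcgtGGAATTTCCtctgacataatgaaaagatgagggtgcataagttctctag

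Over 49 bases, the first kappaB match of each stretch and the 40 bases before it, CXCL1 shared 46 bases with CXCL2 and 46 with CXCL3 (93.9% each), and 24 with CXCL8 (49%). The match began 78 bases before the start in CXCL1 and CXCL3, 77 in CXCL2 and 91 in CXCL8. The stretches of the chemokine CCL20 at chr2:227813723-227813811 (plus strand) and the inhibitor NFKBIA at chr14:35404782-35404870 (minus strand) are shown for a ligand and an inhibitor that differed by over 1 on the log2 scale between vector tumors. Their matches began 79 and 81 bases before the start.
CCL20: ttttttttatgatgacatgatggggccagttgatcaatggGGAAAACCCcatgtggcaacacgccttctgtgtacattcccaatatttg
NFKBIA: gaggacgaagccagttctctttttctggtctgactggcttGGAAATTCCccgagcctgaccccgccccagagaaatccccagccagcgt

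Those of IL6 at chr7:22727088-22727176 (plus strand), ICAM1 at chr19:10270894-10270982 (plus strand), TNFAIP3 at chr6:137867152-137867240 (plus strand) and TNFAIP2 at chr14:103123324-103123412 (plus strand) belong to the genes whose fusion and vector tumors did not overlap.
IL6: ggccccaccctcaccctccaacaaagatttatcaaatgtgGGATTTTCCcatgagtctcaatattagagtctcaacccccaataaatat
ICAM1: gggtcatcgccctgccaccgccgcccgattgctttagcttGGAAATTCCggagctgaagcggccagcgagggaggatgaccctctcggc
TNFAIP3: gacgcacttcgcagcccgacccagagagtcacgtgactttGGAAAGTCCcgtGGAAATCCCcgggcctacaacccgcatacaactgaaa
TNFAIP2: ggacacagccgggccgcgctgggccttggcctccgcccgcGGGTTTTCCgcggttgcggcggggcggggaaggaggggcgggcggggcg

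A match of letters is a description of the sequence, and binding was not measured here. All values that follow are log2 levels of a probe set, and they are compared between tumors, never between genes.

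None of the measured genes passed the test between fusion and vector tumors. Of the 31, 24 had a mean log2 level above 4.94, the filter on dim probe sets set at their 30th percentile, and were tested by limma, with p values adjusted by Benjamini-Hochberg across the 13694 genes tested. At an adjusted p of 0.05, 0 of the 24 were called, where 0.073% of all tested genes were, and the lowest adjusted p was 0.519, for TNFAIP2. At an unadjusted limma p below 0.05 there were 2 of 24, TNFAIP2 and TNFAIP3, where 5.89% of all tested genes reached it. The median log2 fold change was 0.029 over the 31 genes, of which 17 were above 0 and 14 below, and -0.016 over the 24 tested, with 12 above and 12 below. Over all tested genes the median was 0.0020. For 20 of the 24 the 95% confidence interval of the log2 fold change lay within -1 and 1, so that a 2-fold change in either direction lay outside it. This was 83.3% of the group, where it held for 98.5% of all tested genes. The exceptions were CCL20, CCL2, CXCL1 and TNF. CXCL8, IL1A, CXCL3, CXCL5, CXCL6, IL24 and PTGS2 lay below the filter. Their values come from a limma fit with no filter, and a dim probe set can understate a fold.

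**Figure D1:**
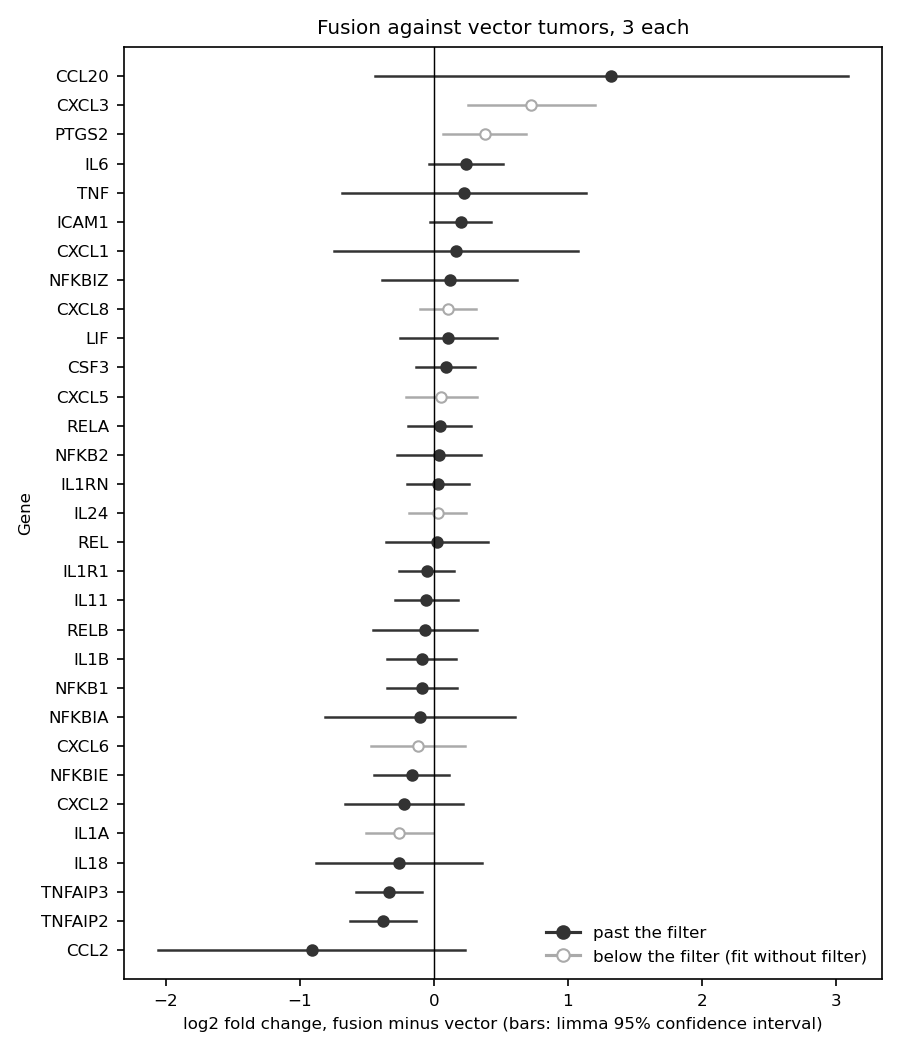
Log2 fold change (horizontal axis, fusion minus vector) of the 31 measured genes, with the 95% confidence interval from limma as a bar; filled points passed the filter on dim probe sets and open points did not. The intervals of CCL20 (-0.44 to 3.09) and CCL2 (-2.06 to 0.23) are the widest, and those of TNFAIP2 and TNFAIP3 are the only ones of tested genes that leave out 0.

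Some of these genes differed widely between tumors of the same group, among them the chemokines CCL20, CCL2 and CXCL1, the cytokine TNF and the inhibitor NFKBIA. The chemokines CXCL2, CXCL3, CXCL5, CXCL6 and CXCL8 did so less, with a log2 range of 0.13 (CXCL8) to 0.67 (CXCL3) among vector tumors. All of these but CXCL2 lay below the filter, where a range can be understated. A wider range among vector tumors was found for 6.95% of tested genes beside CXCL3, 11.3% beside CXCL2 and 12.2% beside CXCL6. It was found for 34.8% beside CXCL5 and 80.1% beside CXCL8. CCL20, the ligand of CCR6, stood at 8.20, 10.12 and 8.90 in fusion tumors 1 to 3 and at 9.28, 7.99 and 5.99 in vector tumors 1 to 3. Vector tumors 1 and 3 were thus 9.77-fold apart, the largest range among vector tumors of all 13694 genes tested, and the range over all 6 tumors was also the largest. The groups overlapped. The difference for CCL20 was 1.32 on the log2 scale with an SE of 0.77 (limma adjusted p = 0.956; exact permutation p = 0.4, where 0.1 is the smallest that 3 against 3 tumors allow).

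CCL2, which attracts monocytes, stood at 4.99, 6.20 and 5.38 in fusion tumors and 7.64, 6.11 and 5.56 in vector tumors 1 to 3. Vector tumor 1 was the highest of the 6 and fusion tumor 1 the lowest, and fusion tumor 2 lay among the vector tumors. The log2 fold change was -0.91 (SE 0.50, limma adjusted p = 0.942), and the range among vector tumors, 4.21-fold, ranked 14 among the 13694 genes.

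CXCL1, a neutrophil attractant that signals through CXCR2, stood at 6.72, 7.16 and 6.81 in fusion tumors and 7.68, 6.74 and 5.78 in vector tumors. All fusion tumors lay between vector tumors 1 and 3, which were 3.73-fold apart (rank 17 among the genes tested). Its log2 fold change was 0.17 (SE 0.40; limma adjusted p = 0.983). The other CXCL1 probe set, also above the filter, gave 0.025 with a smaller SE of 0.15, so the wide spread is that of the brighter probe set. TNF, the cytokine that starts the classical pathway, stood at 6.75, 7.90 and 6.66 in fusion and 7.63, 6.71 and 6.29 in vector tumors, with the highest values in fusion tumor 2 and vector tumor 1 (log2 fold change 0.22, SE 0.40; limma adjusted p = 0.983).

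NFKBIA, which encodes IkappaB alpha and is itself induced by NF-kappaB, stood at 10.92, 11.21 and 10.62 in fusion tumors and 11.76, 10.89 and 10.40 in vector tumors. As for CXCL1, the fusion tumors lay between vector tumors 1 and 3. Its log2 fold change was -0.11 (SE 0.31, limma adjusted p = 0.987), and its 3 probe sets gave -0.12 to -0.027. IL18, a cytokine released after cleavage by caspase 1, stood at 6.63, 7.53 and 7.32 in fusion and 7.93, 7.12 and 7.22 in vector tumors, again with vector tumor 1 and fusion tumor 2 as the highest (log2 fold change -0.26, SE 0.27).

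**Figure D2:**
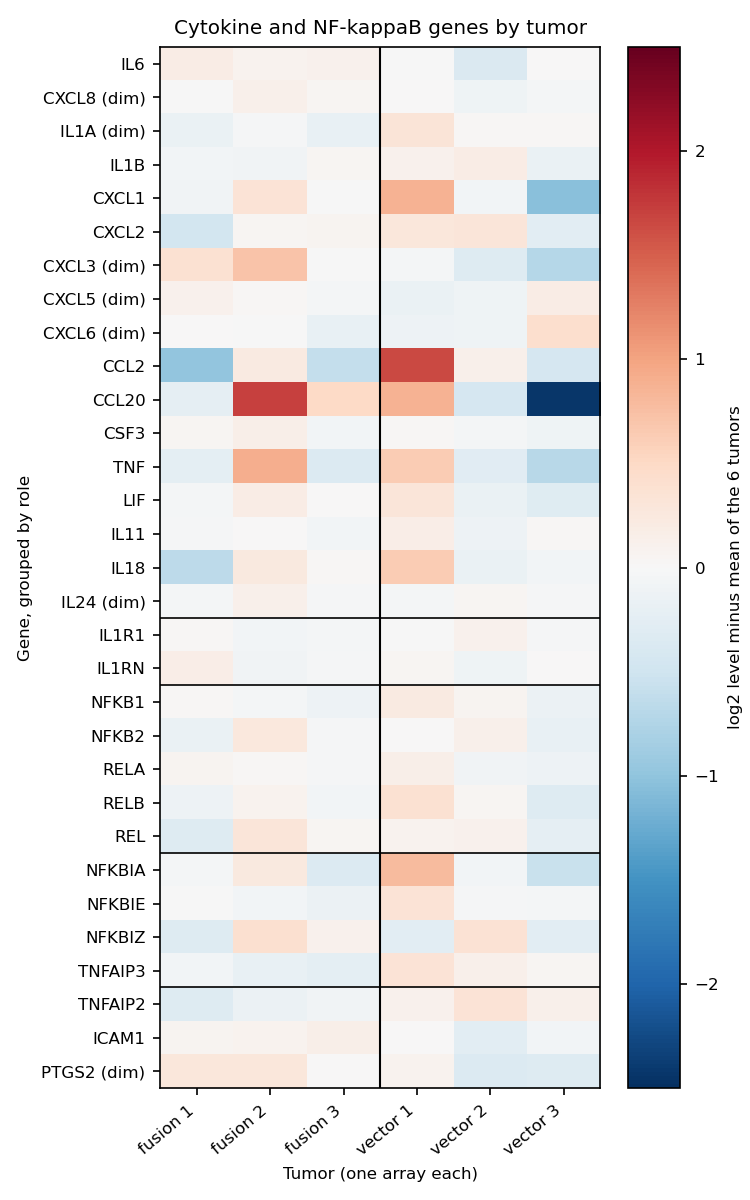
Log2 level of each of the 31 genes in each tumor minus the mean of the 6 tumors, grouped from top to bottom as ligands, interleukin 1 receptor and antagonist, NF-kappaB subunits, inhibitors and other induced genes; red is above and blue below the mean. CCL20, CCL2, CXCL1, TNF and NFKBIA are high in vector tumor 1 and fusion tumor 2, CCL20, CXCL1, TNF and NFKBIA are low in vector tumor 3, and most subunits differ little.

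These genes tended to be high and low in the same tumors. Vector tumor 1 had the highest of the 6 values for 11 of the 24 tested genes and fusion tumor 2 for 6, while vector tumor 3 had the highest for 0 and the lowest for 11. Over all tested genes, vector tumor 1 was highest for 27.2%, fusion tumor 2 for 14.2%, and vector tumor 3 lowest for 15.2%. Vector tumor 1 and fusion tumor 2 were the top pair for 8 of the 24 (CXCL1, CCL2, CCL20, TNF, LIF, IL18, RELB and NFKBIA), against 6.42% of all tested genes. Within the vector group, tumor 1 was highest and tumor 3 lowest for 12 of the 24 (50%), against 23.8% of all tested genes. The range among vector tumors exceeded 1 on the log2 scale for 5 of the 24 (CXCL1, CCL2, CCL20, TNF and NFKBIA), against 1.79% of all tested genes, and among fusion tumors for 3 (CCL2, CCL20 and TNF), against 0.394%. This pattern was noticed in these values and is given as a description, with no test.

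Some values outside the group also set vector tumor 1 apart, alone or together with fusion tumor 2. Across all tested genes vector tumor 1 was the outlying array, with a score of 30.1 on the leading principal component (45.1% of the variance), where the remaining tumors scored -8.58 to -3.68. In a list of 20 skeletal muscle genes that was added after the values were seen, 19 had a probe set and 13 were above the filter, and 11 of the 19 had fusion tumor 2 and vector tumor 1 as their top pair. The mean log2 level of the 19 ran from 5.77 to 6.53 in fusion tumors, with tumor 2 the highest, and from 5.91 to 6.58 in vector tumors, with tumor 1 the highest. TNNC2, the troponin C of fast muscle, stood at 5.60, 9.31 and 6.21 in fusion and 8.66, 7.36 and 6.30 in vector tumors. The part of muscle transcripts in the levels of the chemokines and NFKBIA was not tested. The probe sets are human and host RNA was not separated from RNA of the implanted cells. Fewer cells of a type and less RNA per cell cannot be told apart in these tumors.

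**Figure D3:**
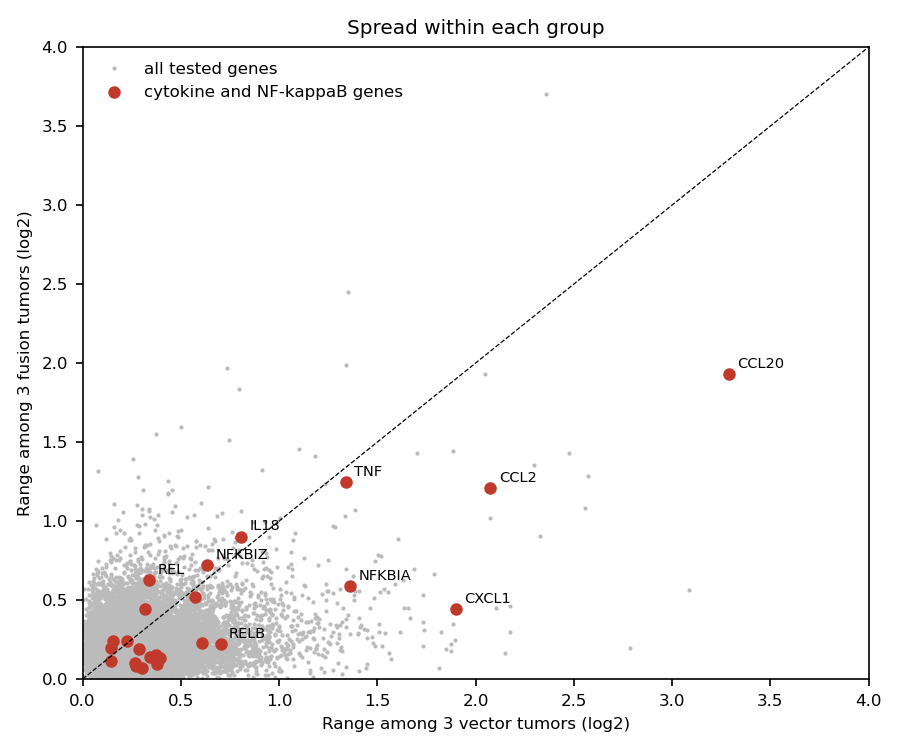
Range of the log2 level among the 3 vector tumors (horizontal axis) and among the 3 fusion tumors (vertical axis) for all 13694 tested genes (grey) and the 24 tested cytokine and NF-kappaB genes (red), with equal ranges on the dashed line. CCL20 lies farthest to the right, with a log2 range of 3.29 among vector and 1.93 among fusion tumors. CXCL1 and NFKBIA have a wider range among vector tumors (1.90 and 1.36) than among fusion tumors (0.44 and 0.59).

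Among the other ligands, IL6, which signals through gp130 to STAT3, stood at 5.67, 5.57 and 5.59 in fusion tumors and 5.49, 5.12 and 5.50 in vector tumors. The groups did not overlap, but the gap was small, and the log2 fold change of 0.24 (SE 0.12, 95% confidence interval -0.035 to 0.51, limma adjusted p = 0.916) did not pass. The other IL6 probe set gave 0.055. IL6 was 1 of 4 tested genes of the group whose fusion and vector tumors did not overlap, where this held for 11.7% of all tested genes. The others were ICAM1, TNFAIP2 and TNFAIP3.

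CXCL2 and CXCL3, the close copies of CXCL1, also attract neutrophils through CXCR2. CXCL3 stood at 5.21, 5.54 and 4.82 in fusion tumors and 4.78, 4.51 and 4.11 in vector tumors, so every fusion tumor was above every vector tumor. It was below the filter, and its log2 fold change of 0.73 (SE 0.21) reached an adjusted p = 0.574 when limma was run with no filter. The other CXCL3 probe set gave 0.44, with overlapping groups. CXCL2 stood at 5.22, 5.74 and 5.74 in fusion and 5.96, 5.99 and 5.42 in vector tumors, which overlapped (log2 fold change -0.22, SE 0.19). The other CXCL2 probe set, also above the filter, gave 0.017, of the opposite sign. Whether CXCL3 differs from CXCL1 or CXCL2 in its response was not tested. The CXCL1 probe set carries a suffix for sequence shared between transcripts, and 1 further probe set each of CXCL1, CXCL2 and CXCL5 named several genes, so the assignment between these copies is uncertain.

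CXCL8, the interleukin 8 gene, was dim in every tumor, at 4.60, 4.74 and 4.65 in fusion and 4.63, 4.49 and 4.55 in vector tumors (log2 fold change 0.11, SE 0.092). A dimmer CXCL8 probe set gave 0.38 with groups that did not overlap, and the remaining probe set gave 0.16. CXCL5 and CXCL6, further ligands of CXCR2, were also dim, with log2 fold changes of 0.056 and -0.12. Both were highest in vector tumor 3 (3.47 and 4.31), the tumor in which CCL20, CXCL1 and TNF were lowest.

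IL1A and IL1B encode the forms of interleukin 1 that engage the receptor IL1R1. IL1A was dim, at 3.65, 3.77 and 3.62 in fusion and 4.13, 3.84 and 3.84 in vector tumors, with every fusion tumor below every vector tumor (log2 fold change -0.26, SE 0.11, limma with no filter, adjusted p = 0.901). IL1B stood at 5.68, 5.66 and 5.80 in fusion and 5.86, 5.94 and 5.60 in vector tumors, which overlapped (log2 fold change -0.090, SE 0.11). The receptor IL1R1 and the receptor antagonist IL1RN had log2 fold changes of -0.054 (95% confidence interval -0.26 to 0.15) and 0.029 (-0.20 to 0.26).

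LIF, a cytokine of the IL6 family, ran from 10.67 to 10.90 in fusion and from 10.41 to 11.02 in vector tumors (log2 fold change 0.11, SE 0.16), and its other probe sets gave 0.021 and 0.34. IL11, of the same family, was at -0.056. The granulocyte growth factor CSF3 was at 0.087, with 2 other probe sets at -0.051 and -0.17, and IL24, of the IL10 family, was dim and at 0.029.

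The 5 NF-kappaB subunits differed little between the groups. RELA, the transactivating subunit p65, stood at 9.47, 9.43 and 9.37 in fusion and 9.55, 9.32 and 9.28 in vector tumors, which overlapped, with a log2 fold change of 0.043 (95% confidence interval -0.19 to 0.28) and 3 probe sets between 0.035 and 0.043. NFKB1 and NFKB2, the precursors of p50 and p52, had log2 fold changes of -0.090 and 0.041, REL had 0.023 and RELB -0.066, and all 5 subunits lay between -0.090 and 0.043. RELB, the partner of p52 in the noncanonical pathway, was 9.73 in vector tumor 1 and 9.03 in vector tumor 3, with fusion tumors between 9.22 and 9.45.

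Of the inhibitors, TNFAIP3, which encodes the ubiquitin-editing enzyme A20, stood at 7.41, 7.28 and 7.23 in fusion tumors and 7.81, 7.60 and 7.52 in vector tumors. Every fusion tumor was below every vector tumor, with a log2 fold change of -0.33 (SE 0.11, 95% confidence interval -0.58 to -0.087, unadjusted p = 0.0139, limma adjusted p = 0.640; exact permutation p = 0.1). Its other probe set gave -0.047, with overlapping groups. NFKBIE, another IkappaB, was at -0.17 (SE 0.12), and NFKBIZ, a nuclear member of the IkappaB family, at 0.12 (SE 0.22). NFKBIZ was highest in fusion tumor 2 (7.10) and vector tumor 2 (7.07), and at 6.43 in vector tumor 1, where NFKBIA, NFKBIE and TNFAIP3 had their highest values.

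Among other induced genes, TNFAIP2, a TNF-inducible gene linked to membrane protrusions, stood at 5.75, 5.93 and 5.99 in fusion tumors and 6.19, 6.42 and 6.20 in vector tumors. Every fusion tumor was below every vector tumor (log2 fold change -0.38, SE 0.11, 95% confidence interval -0.63 to -0.13, unadjusted p = 0.00742, limma adjusted p = 0.519). Its other probe sets all gave values below 0, from -0.28 to -0.0074. ICAM1, the adhesion molecule bound by leukocyte integrins, stood at 6.51, 6.54 and 6.59 in fusion and 6.46, 6.19 and 6.38 in vector tumors, with the fusion tumors above (log2 fold change 0.20, SE 0.10, limma adjusted p = 0.916), and its other probe sets gave 0.13 and 0.28. PTGS2, the cyclooxygenase COX-2, was dim, at 4.69, 4.69 and 4.44 in fusion and 4.51, 4.08 and 4.11 in vector tumors, where fusion tumor 3 lay below vector tumor 1 (log2 fold change 0.38, SE 0.14, limma with no filter, adjusted p = 0.782). Its other probe sets gave 0.59 and 0.050.

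**Figure D4:**
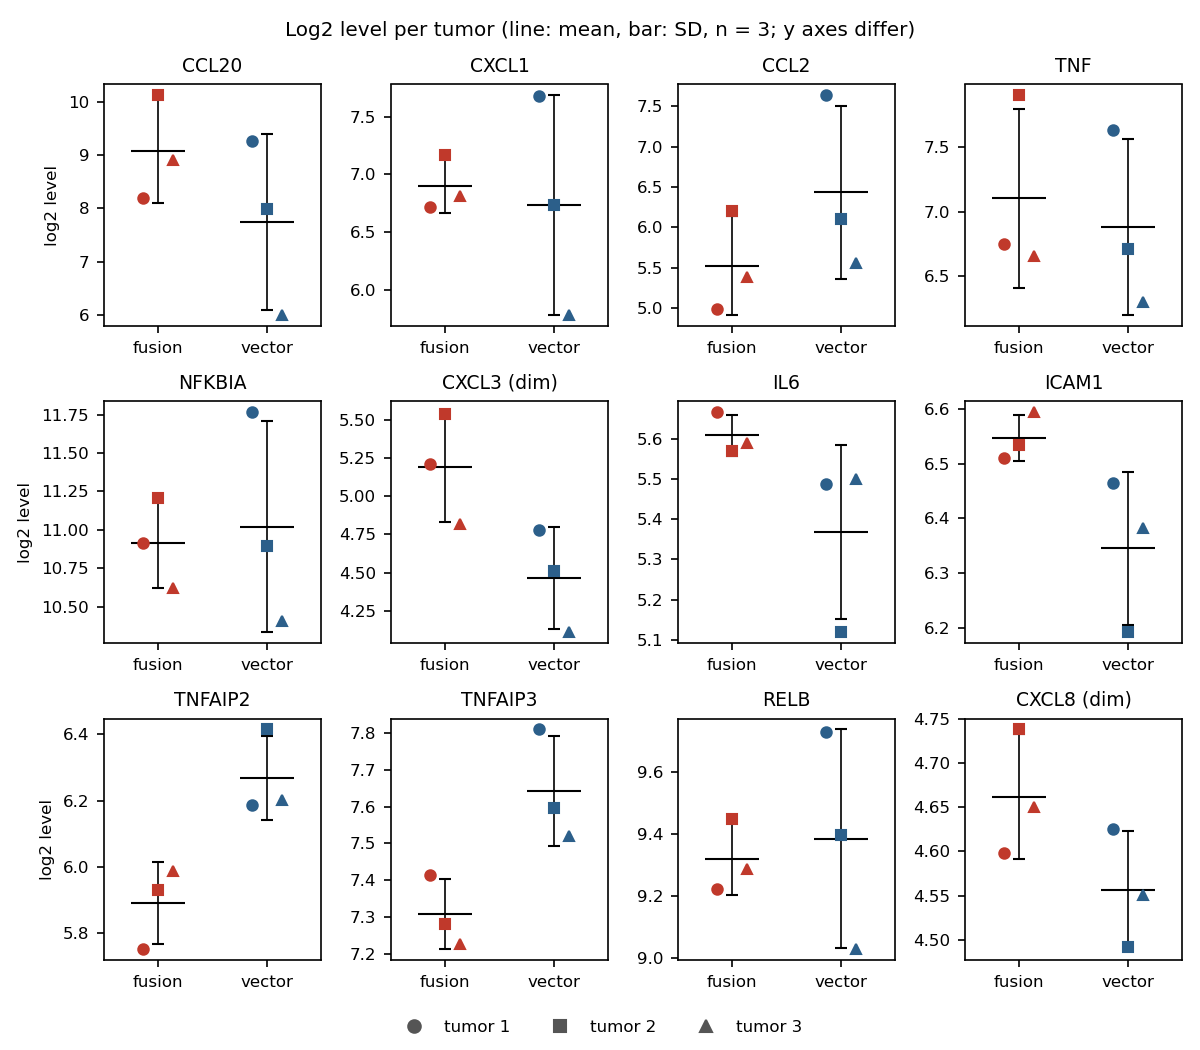
Log2 level of 12 genes in each of the 3 fusion (red) and 3 vector (blue) tumors, with the mean as a line and the SD as a bar; symbols give the tumor number, which does not pair tumors, and the vertical axes differ between panels. TNFAIP2 and TNFAIP3 are lower in every fusion tumor and CXCL3, IL6 and ICAM1 higher, while CCL20, CXCL1, TNF, NFKBIA and RELB overlap between the groups.

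Because vector tumor 1 stood apart, the comparison was also made without it. Then 0 of 24 passed by limma, and 7 had an unadjusted p below 0.05, where 9.21% of 13676 tested genes did. They were CCL20 (log2 fold change 2.09, adjusted p = 0.345), CXCL1 (0.64, 0.506), IL6 (0.30, 0.510), LIF (0.29, 0.449), ICAM1 (0.26, 0.449), TNFAIP2 (-0.42, 0.258) and TNFAIP3 (-0.25, 0.473). Vector tumor 1 held the highest vector value of CCL20, CXCL1, LIF and ICAM1, so leaving it out raises their log2 fold change by construction. Without vector tumor 3 in place of it, 0 of 25 passed by limma, and 5 had an unadjusted p below 0.05, where 6.19% of 13690 tested genes did. They were CCL2 (-1.35), CXCL2 (-0.41), CXCL3 (0.55), TNFAIP2 (-0.41) and TNFAIP3 (-0.40), with adjusted p values from 0.680 to 0.796. Vector tumor 3 held the lowest vector value of CCL2, CXCL2, CXCL3 and TNFAIP3, so leaving it out lowers their log2 fold change by construction. CXCL3 was below the filter with all tumors and passed it there once its lowest vector tumor was left out. Its remaining vector tumors stood at 4.78 and 4.51, so it was tested only through the fusion tumors, where it is higher. There the log2 fold change of CCL20 was 0.44 and that of CXCL1 was -0.31.

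The rest of the pathway was read from 4 further lists, and limma called 0 genes in each. Of 26 receptors, 15 were tested, with a median log2 fold change of 0.075, against 0.0020 over all tested genes. At an unadjusted limma p below 0.05, 2 were higher and 1 lower, where 5.89% of all tested genes reached it in either direction. LIFR, the receptor of LIF, stood at 10.15, 9.46 and 9.81 in fusion and 8.64, 9.27 and 9.59 in vector tumors (log2 fold change 0.64, SE 0.25, limma adjusted p = 0.780). Vector tumor 1 was the lowest and the groups overlapped. IL20RB, a receptor chain for IL24, was at 0.36 (adjusted p = 0.708 by limma), the IL6 receptor IL6R at -0.20 (0.829) and the TNF receptor TNFRSF1A at 0.15 (0.962).

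Of 32 genes that carry the signal to the IkappaB kinases or restrain it, 28 were tested, with a median of 0.013. Only 1 gene, MALT1, had an unadjusted limma p below 0.05, where 5.89% of all tested genes did. MALT1, a paracaspase that cleaves A20, stood at 8.13, 8.61 and 8.39 in fusion and 8.61, 8.73 and 8.68 in vector tumors, with fusion tumor 2 only just below vector tumor 1 (log2 fold change -0.30, adjusted p = 0.830 by limma). MYD88, the adaptor of interleukin 1 and Toll-like receptors, was at -0.27, the nuclear IkappaB BCL3 at -0.27 and the ubiquitin ligase BIRC2 at 0.18, none past the threshold. Of 39 further induced genes 27 were tested (13 above 0, median -0.058), with 0 at an unadjusted p below 0.05 by limma. The 4 with the smallest p were the endothelial adhesion molecule SELE (0.22), the syndecan SDC4 (0.21), IL15 (-0.32) and the macrophage growth factor CSF1 (-0.13).

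In the list of gp130 and STAT3 genes, 9 of 12 were tested (median 0.037), with 0 at an unadjusted p below 0.05. SOCS3, the feedback inhibitor of gp130, stood at 8.82, 8.48 and 8.51 in fusion and 7.74, 8.47 and 8.39 in vector tumors, with fusion tumor 2 only just above vector tumor 2 and with a log2 fold change of 0.40 (SE 0.19, limma adjusted p = 0.898). Vector tumor 1 again held the extreme value. SOCS1 was at -0.21, JAK1 at 0.081 and BCL6 at 0.13.

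Markers of other cells the tumors could hold were read beside these genes. Of 14 leukocyte markers with a probe set 5 had a log2 fold change above 0, and their mean log2 level was 5.45 to 5.49 in fusion and 5.42 to 5.50 in vector tumors. Of these 14, 9 were above the filter (CD68, CSF1R, AIF1, TYROBP, FCER1G, LAPTM5, ITGAM, ITGAX and CD3E), while PTPRC, the pan-leukocyte CD45, CD14, CD163, S100A8 and S100A9 had a mean below it. CD68, of macrophages, had a log2 fold change of 0.80 (limma adjusted p = 0.112), and the other 8 that were tested lay between -0.13 (TYROBP) and 0.17 (CSF1R). All 10 fibroblast markers had a log2 fold change above 0, with a mean level of 6.09 to 6.18 in fusion and 5.77 to 5.96 in vector tumors. Of the 7 tested, 4 had an unadjusted p below 0.05 by limma, where 5.89% of all tested genes did. In each of the 4 every fusion tumor was above every vector tumor, where the groups did not overlap for 11.7% of all tested genes. The 4 were the protease FAP (log2 fold change 0.91, limma adjusted p = 0.202), the collagens COL1A1 (0.65, 0.593) and COL1A2 (0.24, 0.708) and the surface protein THY1 (0.36, 0.641). COL3A1 (0.20), POSTN (0.27) and PDGFRB (0.019) were tested too and overlapped. Which cells hold these transcripts was not tested. DCN, LUM and COL6A3 had a mean below the filter. The mean log2 level of the 7 endothelial markers ran from 5.68 to 5.73 in fusion and from 5.59 to 5.79 in vector tumors. Of these markers, TEK and CLDN5 had a mean below the filter. The part of these cells in the values of IL6, ICAM1, CXCL3, TNFAIP2 and TNFAIP3 was not tested. Among 8 squamous markers with a probe set, the transcription factor SOX2 stood at 8.70 to 8.92 in fusion and 9.24 to 10.10 in vector tumors, which did not overlap (log2 fold change -0.83, unadjusted p = 0.00240, limma adjusted p = 0.369). KRT5 (4.90 to 5.41) and SERPINB5 (4.78 to 5.59) were near the filter, DSG3 and EPCAM were below it, and KRT14, PKP1 and S100A2 were above it. The part of SOX2 in the values of the cytokine and NF-kappaB genes was not tested.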

How the data were processed

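Biotin-labelled RNA of 6 tumors was hybridised to Affymetrix arrays, per the labels' protocols, with 1 array for each tumor. The authors' deposited values are 1 summary per probe set and array, taken as log2 from their range, since no unit is stated. How they corrected, normalized and summarised them is not given in the sources used here. Array medians lay between 6.27 and 6.39. Without a detection call the background of a dim value is unknown, and the number of arrays limits the precision. The labels call the tumors biological replicates without naming the mice, so p values measure the spread between these samples.

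The platform annotation named 1 gene for 44988 of 49293 probe sets, several for 1832 and none here for 2473. RefSeq (GRCh38.p14) holds all 34 symbols. Limma 3.58.1 (R 4.3.3, data.table in version 1.17.8) was fitted with lmFit and eBayes, two-sided, on 1 probe set per gene with a mean at or above the 30th percentile. Log2 fold changes are fusion minus vector, and permutation tests are exact and two-sided.

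The members and lists were chosen with earlier results of these data known. All members are named. Values in all 6 tumors are given for genes with groups that do not overlap, with an unadjusted p below 0.05, or among the 5 largest changes in either direction, and for IL6, CXCL8, IL1A, IL1B, NFKBIA and RELA. Each further pathway list is represented by up to 4 genes of smallest p, and markers of other cells were named after their values were seen. CXCL1, CXCL2, RELB, LIFR, MALT1, SOCS3, BCL2A1 and the muscle list with TNNC2 were given by tumor after their values were seen.

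Simulations of 13694 independent genes (20 runs, 200 changed genes each) recovered 50.8% of 1.5-fold changes, 85.7% at 2-fold and 98.3% at 4-fold, and 4.46% of calls were false. With fewer changed genes recovery can be lower. These rates are averages over all tested genes. They do not apply to members with a wide spread, such as CCL20 (SE 0.77), CCL2 (0.50), CXCL1 (0.40), TNF (0.40) and NFKBIA (0.31). Alternatives varied the filter, probe set, normalization between arrays, variance model, array weights, replicate block, threshold and the tumors included. Plots used Python 3.11.15 with matplotlib 3.10.9.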

Additional observations from a re-analysis of the deposited data

How the results depend on the processing

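The count of cytokine, chemokine and NF-kappaB genes past the threshold was 0 under each alternative run, including an adjusted p of 0.10, no filter on dim probe sets (5 of 31 at an unadjusted p below 0.05, against 5.46% of all tested genes), a filter at the 50th percentile (1 of 17, against 6.25%) and array weights (6 of 24, against 13.5%). With array weights, limma gave TNFAIP2 its lowest adjusted p, 0.0843, and TNFAIP3 0.108, so TNFAIP2 would pass there at 0.10, a pair of settings not run together. With the replicate number as a block it was also 0 of 24, with 2 at an unadjusted p below 0.05 (6.65% of all tested genes). Leaving out a tumor gave 1 (without fusion tumor 3) to 7 (without vector tumor 1) at an unadjusted p below 0.05, where 3.96% and 9.21% of all tested genes had one. Same-numbered tumors correlated at 0.097, 0.17 and 0.051 in their deviations from the group means, each tumor best with its own number, which is a hint from the data and not from the design, and the block was not used elsewhere. The count of genes above 0 ran from 12 to 19 of 31 over the settings that leave out a tumor, and the median log2 fold change from -0.064 (without fusion tumor 2) to 0.052 (without vector tumor 1). With the mean of all probe sets of a gene that median was -0.017. Over the alternatives that give a log2 fold change, 32 of 465 values of single genes had another sign than the value given above. Of these, 7 came without vector tumor 3, and 13 of the 31 genes kept their sign in every setting. The filter settings, the variance model and the block leave the fold change unchanged by construction. Their values among the 465 could therefore not change sign. Of 33 other probe sets of these genes 6 had another sign and 0 passed the threshold. The log2 fold change over all settings ran from -0.43 to -0.0074 for TNFAIP2, with its other probe sets included, from -0.40 to -0.047 for TNFAIP3, from 0.055 to 0.31 for IL6, from 0.12 to 0.28 for ICAM1, from 0.44 to 2.09 for CCL20, from -0.31 to 0.64 for CXCL1 and from -0.36 to 0.34 for NFKBIA. Among the further induced genes, 1 gene (BCL2A1, an anti-apoptotic BCL2 relative) passed without vector tumor 1, where 0 passed with all tumors. Calls by limma among all tested genes rose there too, from 10 of 13694 with all tumors to 37 of 13676. BCL2A1 stood at 5.76, 6.22 and 6.14 in fusion and 6.90, 4.72 and 4.79 in vector tumors, so the tumor left out held its highest value. Its remaining vector tumors lay below 4.94, the filter set with all tumors. BCL2A1 was thus tested there only through the fusion tumors, where it is higher.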
